A study of Mus musculus with 24 samples.

Results

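The 10 genes described here, which textbooks give as targets of the FOXO transcription factors, were followed across the mouse collecting duct line mpkCCD: Depp1, Bmf, Sesn1, Sesn3, Pik3ip1, Irs2, Fbxo32, Cdkn1b, Ccng2 and Bcl6. They were taken by gene symbol, and 10 of 10 were found among the 12224 rows of the expression table, and 10 of 10 passed the filter on low values, a mean of at least 1 of the scaled units defined below. The list was chosen by measured values, as it was put together with the effect of the agonist in wild-type cells already known. Values of that effect, and of its difference between genotypes, are therefore given as a description: they carry no p, and counts past a threshold in them are not read as a test. Earlier results of these data, those in KO cells included, were known as well when the list was made. Which of them weighed in the choice is not stated. No FOXO binding or protein was measured, so "FOXO target" is background knowledge of these genes and not a reading of these cells.

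FOXO proteins are forkhead transcription factors that integrate growth factor and stress signals. When PI3K is active, the kinases AKT and SGK phosphorylate them, 14-3-3 proteins bind them, and they are held in the cytoplasm. When PI3K signalling is low they enter the nucleus and activate genes for cell cycle arrest, cell death, autophagy and stress resistance, together with genes that feed back on insulin, PI3K and mTORC1 signalling. SGK1 is also known in the collecting duct as a kinase that raises sodium transport through the epithelial sodium channel.

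The line comes from mouse kidney cortical collecting duct epithelium. It was used as wild-type cells (WT) and as Gpr39 knockout cells (KO), GPR39 being a zinc-sensing receptor. Both genotypes were polarized for 9 days on permeable inserts in medium without dDAVP, a vasopressin analogue, and then held in a simple medium for 24 h. The basolateral side was next exposed for 2 h either to 1 µM cpd1324, named below as the agonist, or to vehicle, 0.1% DMSO. All 4 groups, vehicle included, received 10 µM ZnCl2, so no group was free of added zinc. Each group had 6 libraries, and all 24 were of poly(A)-selected RNA. The labels give neither the edited part of Gpr39 nor the number of KO clones, and they do not say whether replicates were separate cultures, so each p-value measures only the spread between these samples. Library numbers ran by group, so that treatment and library order cannot be told apart.

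Levels are given in scaled units: reads divided by a library factor and by gene length, multiplied by 1 constant so that a library totals 1000000 on average. They can be compared between genes only as far as the deposited gene length holds for each, and how that length was defined is not stated. Recovered depth was 29.8 to 51.9 M reads per library (M, 1000000). Gpr39 itself stood at 8.52 to 10.4 scaled units under vehicle and 8.20 to 10.6 under agonist in KO cells, below every WT library (20.3 to 24.5 and 27.1 to 31.1). Of 13 principal cell markers 11 were measured, and their summed level was 4212 to 4785 in WT vehicle, 8332 to 10960 in WT agonist, 4281 to 4805 in KO vehicle and 3910 to 4693 in KO agonist libraries. The higher sum in WT agonist libraries came from the epithelial genes Krt18 (mean 2236 under vehicle and 6356 under agonist), Cdh1 (794 and 1476) and Epcam (692 and 988). Of the 11 markers 7 had a lower mean with the agonist in WT cells, among them the water channel gene Aqp2 (17.7 and 11.7), the vasopressin receptor gene Avpr2 (105 and 54.5) and the sodium channel gene Scnn1g (33.4 and 13.4). Between KO and WT vehicle libraries 7 had a higher mean in KO cells, among them Aqp2 (87.3) and Hsd11b2 (299 against 78.4), and 4 a lower one, Scnn1b (1.95 against 8.19), Scnn1a (293 against 376), Krt18 (1950.0) and Epcam (642.5). The part of these markers in the results below was not tested. Of the intercalated cell markers 1 of 6 passed the filter on low values (Aqp6), of proximal tubule 1 of 5 (Lrp2), of thick limb and distal tubule 1 of 4 (Slc12a3), of fibroblast 1 of 5 (Col1a1) and of endothelial and immune cells 2 of 5 (Cd68 and Csf1r). The total over all rows was 1.18 times as high in WT agonist as in WT vehicle libraries. In earlier results of these data KO vehicle library 6 and KO agonist library 2 stood apart from their groups. Without both, rows called in KO cells went from 1075 to 2623. Leaving out any other single KO library lowered that count, to between 284 (KO agonist library 1) and 979 (KO vehicle library 2). In bulk RNA, fewer cells of a type and less RNA per cell cannot be told apart.

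The start-site sequences of the list were examined for the 2 forms of the letters that FOXO proteins are known to bind, GTAAACA and CAAAACA, on both strands (TGTTTAC and TGTTTTG on the reverse; neither form contains the other). RefSeq windows of 300 bases, from 250 before to 50 after each start, were at hand for 9 of the 10 genes, 13 windows in all (build GRCm38.p6). A match was present in 3 of the 13. Among all 32851 mouse windows of that length 9.63% held either form, 3.65% GTAAACA and 6.28% CAAAACA. The stretches below are those of Depp1, which had the largest difference in WT cells and no match, of Irs2, the gene that was higher with the agonist in WT cells, of Ccng2, the gene called in KO cells, and the match of Sesn1. Capitals mark the match; a match is a description of letters and does not show binding.
Depp1, chr6:116650434-116650683, plus strand, no match: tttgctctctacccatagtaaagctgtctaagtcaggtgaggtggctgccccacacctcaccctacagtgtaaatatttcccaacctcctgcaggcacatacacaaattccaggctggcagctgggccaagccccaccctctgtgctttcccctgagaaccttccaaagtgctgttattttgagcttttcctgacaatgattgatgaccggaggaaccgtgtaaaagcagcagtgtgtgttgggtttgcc
Irs2, chr8:11008930-11009179, minus strand, match first base at −37: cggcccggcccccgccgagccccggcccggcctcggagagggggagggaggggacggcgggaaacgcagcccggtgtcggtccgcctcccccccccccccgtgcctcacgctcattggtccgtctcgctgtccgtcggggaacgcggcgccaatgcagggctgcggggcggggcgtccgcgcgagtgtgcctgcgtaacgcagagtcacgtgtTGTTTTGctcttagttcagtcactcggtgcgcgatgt
Ccng2, chr5:93267323-93267572, plus strand, match first base at −16: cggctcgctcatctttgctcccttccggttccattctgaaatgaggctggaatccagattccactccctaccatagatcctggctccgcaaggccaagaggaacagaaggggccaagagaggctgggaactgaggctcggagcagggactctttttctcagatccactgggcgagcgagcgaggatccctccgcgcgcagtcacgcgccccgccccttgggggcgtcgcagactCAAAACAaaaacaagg
Sesn1, chr10:41810586-41810612, plus strand, 27 bases around a match that begins at base 22 after the start: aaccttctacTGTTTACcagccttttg

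With the agonist, the response of cells that carry the receptor was read first. In WT cells Depp1, Bmf, Sesn1, Pik3ip1 and Fbxo32 were lower with the agonist by the most, Cdkn1b, Sesn3 and Bcl6 by less, Irs2 was higher and Ccng2 was nearly level. An adjusted p below 0.05 in the fit over all rows (limma), which is what "called" means throughout, was reached by 8 genes as lower and by Irs2 as higher. Over all 11557 rows tested 57.2% were called, 28.6% lower and 28.6% higher, and 5.43% were called and at least 1.5-fold lower, against 6 of these 10 genes. The WT groups did not overlap for 8 of the 10 genes, against 37.5% of all rows. Their median difference was −0.75 on the log2 scale, and that of all rows −0.01. Nothing is read from these shares, since they restate the contrast taken to have chosen the list. Scaled to the same total per library, the median of all rows moved to −0.24 and that of the 10 genes to −0.98, and Ccng2 joined those called lower (−0.30); Irs2 remained higher (0.25). Differences were taken after 0.5 was added to each scaled level, so those of low genes such as Pik3ip1 are understated.

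Bmf and Depp1 belong to the cell death and autophagy side of the FOXO program. Bmf encodes a BH3-only protein that binds pro-survival BCL2 proteins and is known for its part in death after loss of anchorage. Its lowest, median and highest levels were 41.0, 44.4 and 47.7 in WT vehicle libraries, 12.3, 15.1 and 22.4 in WT agonist, 40.9, 48.5 and 55.0 in KO vehicle and 47.1, 53.6 and 59.1 in KO agonist libraries. The 6 WT agonist libraries lay apart, below all 18 others. The agonist difference in WT cells was −1.42 ± 0.10 (log2 ± SE), or 37.3% of the vehicle mean. In KO cells it was 0.15 ± 0.10, with the 2 groups overlapping, and did not pass (limma, adjusted p = 0.338, 95% interval −0.056 to 0.35).

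Depp1 encodes a small protein linked to autophagy and to the handling of reactive oxygen. Its levels were 78.2, 108 and 139.7 in WT vehicle, 18.1, 31.9 and 62.7 in WT agonist, 16.8, 24.8 and 32.3 in KO vehicle and 22.8, 28.4 and 35.9 in KO agonist libraries (lowest, median, highest). WT vehicle libraries were above all others, and the WT agonist and both KO groups overlapped. The KO vehicle group fell in 2 parts, libraries 1 to 3 at 29.9 to 32.3 and libraries 4 to 6 at 16.8 to 19.6, so none lay at its median. The part of this split in the KO difference below was not tested. The WT agonist group varied most, with a coefficient of variation of 46.0%, against 23.0% for Bmf. The difference was −1.53 ± 0.23 in WT cells and 0.27 ± 0.23 in KO cells, where it did not pass (limma, adjusted p = 0.467, 95% interval −0.21 to 0.74). Without agonist, the KO mean was 23.4% of the WT mean, and WT agonist libraries stood at 36.8% of WT vehicle libraries.

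Sesn1 and Sesn3 encode sestrins, stress proteins that restrain mTORC1 through the GATOR complexes. Sesn1 stood at 22.6, 26.8 and 30.5 in WT vehicle and 8.40, 10.6 and 11.4 in WT agonist libraries, against 21.0, 26.6 and 28.5 in KO vehicle and 21.6, 22.5 and 26.2 in KO agonist libraries (lowest, median, highest). As for Bmf, every WT agonist library was below all 18 others. The WT difference was −1.33 ± 0.08. In KO cells it was −0.15 ± 0.08, an interval of −0.31 to 0.0067 that did not pass (limma, adjusted p = 0.197).

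Sesn3 stood at 13.4, 14.7 and 15.6 in WT vehicle, 9.86, 12.1 and 13.8 in WT agonist, 17.2, 19.6 and 22.1 in KO vehicle and 20.0, 23.2 and 24.5 in KO agonist libraries. Every KO library was above every WT library, and the 2 WT groups overlapped, with a difference of −0.29 ± 0.07. In KO cells the agonist difference had the other sign, 0.21 ± 0.07, and did not pass (limma, adjusted p = 0.0605). Sesn2, the remaining sestrin, which is known as a stress-induced gene, rose in WT cells from 72.4 ± 3.63 to 169.7 ± 17.0 (log2 difference 1.22 ± 0.06).

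Pik3ip1 and Irs2 act on the upstream pathway itself. Pik3ip1 encodes a membrane protein that inhibits the catalytic subunit of PI3K. It was the lowest of the 10 genes, at 2.99, 3.46 and 4.77 in WT vehicle, 1.25, 1.40 and 1.72 in WT agonist, 4.10, 6.08 and 6.78 in KO vehicle and 4.64, 5.56 and 6.52 in KO agonist libraries. These rest on 150 to 318 recovered reads per library in WT vehicle and 56 to 82 in WT agonist. The WT agonist libraries were again below all others, with a difference of −1.09 ± 0.11. In KO cells the difference was −0.031 ± 0.11 (limma, adjusted p = 0.881, 95% interval −0.26 to 0.20).

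Irs2 encodes an adaptor that links the insulin and IGF1 receptors to PI3K, and it was the 1 gene of the list that was higher with the agonist. Its levels were 58.1, 63.1 and 72.0 in WT vehicle, 76.9, 89.2 and 99.4 in WT agonist, 58.8, 69.6 and 71.0 in KO vehicle and 57.0, 70.6 and 79.9 in KO agonist libraries. The 6 WT agonist libraries were above the 6 WT vehicle libraries, by 0.49 ± 0.07. KO agonist and KO vehicle libraries overlapped, with a difference of 0.018 ± 0.07 (limma, adjusted p = 0.896, 95% interval −0.14 to 0.17). Its paralogue Irs1 moved the other way in WT cells, from 20.5 ± 1.77 to 12.5 ± 2.01 (log2 difference −0.71 ± 0.10).

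**Figure D1:**
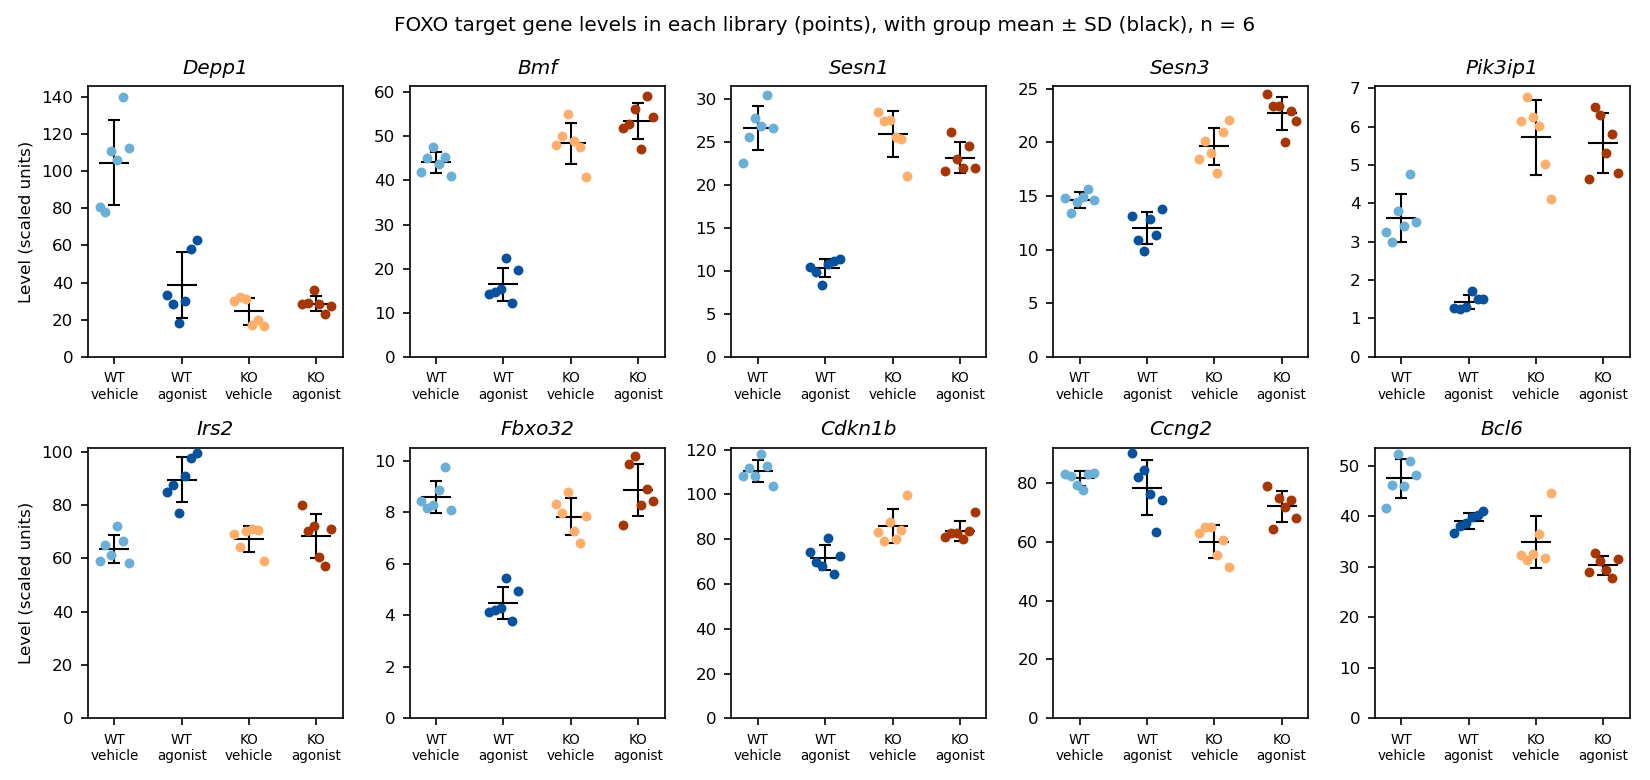
Level of each of the 10 genes in scaled units (vertical axes from 0, 1 panel per gene), with 1 point per library and the group mean ± SD in black (n = 6). The WT agonist points of Bmf, Sesn1, Pik3ip1 and Fbxo32 lie below the points of the other 3 groups, those of Irs2 lie above the WT vehicle points, and Depp1 is higher in the 6 WT vehicle libraries than in the other 18.

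Fbxo32 encodes atrogin-1, the F-box subunit of a ubiquitin ligase known from muscle atrophy. It stood at 8.10, 8.35 and 9.73 in WT vehicle, 3.77, 4.24 and 5.44 in WT agonist, 6.81, 7.90 and 8.79 in KO vehicle and 7.51, 8.66 and 10.2 in KO agonist libraries. WT agonist libraries were below all others, at 51.9% of the WT vehicle mean, a difference of −0.88 ± 0.08. The KO difference of 0.17 ± 0.08 did not pass (limma, adjusted p = 0.187).

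Cdkn1b and Ccng2 are the cell cycle genes of the list. Cdkn1b encodes p27, an inhibitor of cyclin-dependent kinases, and was the most abundant of the 10 in WT vehicle libraries, at 104, 110.0 and 118. It stood at 64.4, 71.2 and 80.6 in WT agonist, 79.4, 83.6 and 99.8 in KO vehicle and 79.9, 82.8 and 91.9 in KO agonist libraries. WT agonist libraries did not overlap with WT vehicle libraries (difference −0.62 ± 0.05), and both KO groups were below every WT vehicle library and overlapped with the top of the WT agonist range. The KO agonist difference was −0.031 ± 0.05 (limma, adjusted p = 0.738, 95% interval −0.14 to 0.081).

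Ccng2 encodes cyclin G2, an unconventional cyclin that is high in arrested cells. It was the 1 gene of the list not called in WT cells, at 77.7, 82.6 and 83.5 under vehicle and 63.5, 79.0 and 90.1 under agonist (−0.065 ± 0.07). It was also the only one of the 10 that passed in KO cells, where it rose from 51.3, 61.7 and 64.9 to 64.2, 73.1 and 79.0, by 0.26 ± 0.07 (limma, adjusted p = 0.0225). The KO groups overlapped. The call was lost without KO agonist library 1 (adjusted p = 0.0642) or library 5 (adjusted p = 0.0501).

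Bcl6 encodes a zinc finger repressor of transcription. It stood at 41.6, 47.1 and 52.3 in WT vehicle, 36.7, 39.2 and 40.9 in WT agonist, 31.3, 32.4 and 44.6 in KO vehicle and 27.7, 30.3 and 32.7 in KO agonist libraries. The agonist difference was −0.28 ± 0.07 in WT cells, without overlap, and −0.19 ± 0.07 in KO cells, with overlap and short of the threshold (limma, adjusted p = 0.079). It was the 1 gene for which the 2 agonist differences were not called different (−0.085 ± 0.10). The highest KO vehicle level, 44.6, was that of library 6, which stood apart from its group, and the next highest was 36.5. With 1 library left out the KO difference ranged from −0.22 to −0.12, and that between the 2 agonist differences from −0.16 to −0.056.

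In KO cells 1 of the 10 genes was called, Ccng2, against 9.3% of all rows tested. Sesn3 and Bcl6 came next and fell short of the threshold (limma, adjusted p = 0.0605 and 0.079). The KO libraries are not in the WT contrast, but earlier results in KO cells were known too when the list was made. The agonist difference in WT minus that in KO cells was −1.80 ± 0.33 for Depp1, −1.57 ± 0.14 for Bmf, −1.18 ± 0.11 for Sesn1, −1.06 ± 0.16 for Pik3ip1 and −1.05 ± 0.12 for Fbxo32. It was smaller for Cdkn1b (−0.59 ± 0.08), Sesn3 (−0.49 ± 0.10) and Ccng2 (−0.33 ± 0.10), and positive for Irs2 (0.47 ± 0.11). These 9 were called, against 41.1% of all rows, but hold the WT contrast and are a description. Without KO vehicle library 6 and KO agonist library 2, the libraries that stood apart, 3 of the 10 were called in KO cells. Over all rows, 2623 of 11557 were called in that fit. The 3 genes were Ccng2, Sesn3 (limma, adjusted p = 0.0294) and Sesn1 (log2 difference −0.25, adjusted p = 0.0194). Sesn3 also passed without WT agonist library 3 (adjusted p = 0.0409), and Bcl6 without KO agonist library 2 alone (adjusted p = 0.0486).

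**Figure D2:**
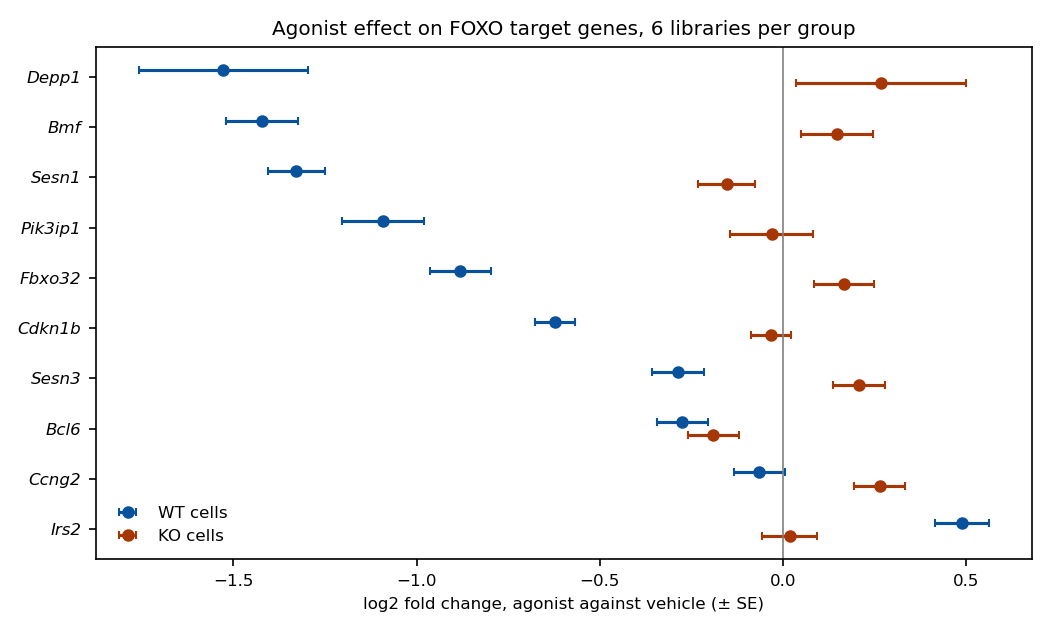
Agonist minus vehicle difference of each gene as log2 fold change (horizontal axis; bars are ± SE) in WT cells and in KO cells, 6 libraries per group. In WT cells 6 genes lie at or below −0.62 and Irs2 at 0.49, while in KO cells the 10 values lie between −0.19 and 0.27.

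Depp1, Sesn3, Pik3ip1, Bcl6, Ccng2 and Cdkn1b differed between the genotypes before any agonist. KO vehicle libraries were compared with WT vehicle libraries, which are also the controls of the WT agonist effect, so the 2 comparisons share samples. Of the 10 genes 6 were called, 2 higher and 4 lower in KO cells, against 47.8% of all rows, and the groups did not overlap for 4 (Depp1, Sesn3, Ccng2 and Cdkn1b), against 27.3%. Pik3ip1 was higher in KO cells by 0.59 ± 0.11 and Sesn3 by 0.41 ± 0.07 (limma, adjusted p = 0.000126 and 4.07e-05). Depp1 was lower (−2.10 ± 0.23), with no overlap of the groups (limma, adjusted p = 5.11e-08). Bcl6 (−0.45 ± 0.07, limma adjusted p = 9.17e-06), Ccng2 (−0.44 ± 0.07, 9.53e-06) and Cdkn1b (−0.37 ± 0.05, 4.78e-06) were lower too. Bmf, Fbxo32, Irs2 and Sesn1 did not pass, at 0.13, −0.13, 0.082 and −0.042.

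The genotype difference of whole chromosomes was set beside these values. Depp1 and Cdkn1b lie on chromosome 6, where the median over 526 other rows was −0.33 against 0.00 over all rows. The value of Cdkn1b, −0.37, is close to that median, and the value of Depp1, −2.10, is far below it. The chromosomes of Sesn3 (0.01), Pik3ip1 (−0.04), Ccng2 (0.05) and Bcl6 (−0.08) had medians near 0. Sesn1 (−0.042) lies on chromosome 10 with a median of −0.16, and Irs2 (0.082) on chromosome 8 with a median of 0.17. Markers of other tubule cells differed between WT vehicle and KO vehicle libraries in both directions. Slc12a3 was at 0.20 to 0.74 and 4.95 to 7.75, and Lrp2, the proximal tubule marker, at 8.06 to 10.6 and 4.49 to 6.77. Of the intercalated cell markers, Aqp6 had means of 27.7 and 51.4, Slc4a1 of 0.405 and 0.942 and Slc26a4 of 0.954 and 0.873. The part of chromosome-wide differences and of these markers in the values of single genes was not tested.

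**Figure D3:**
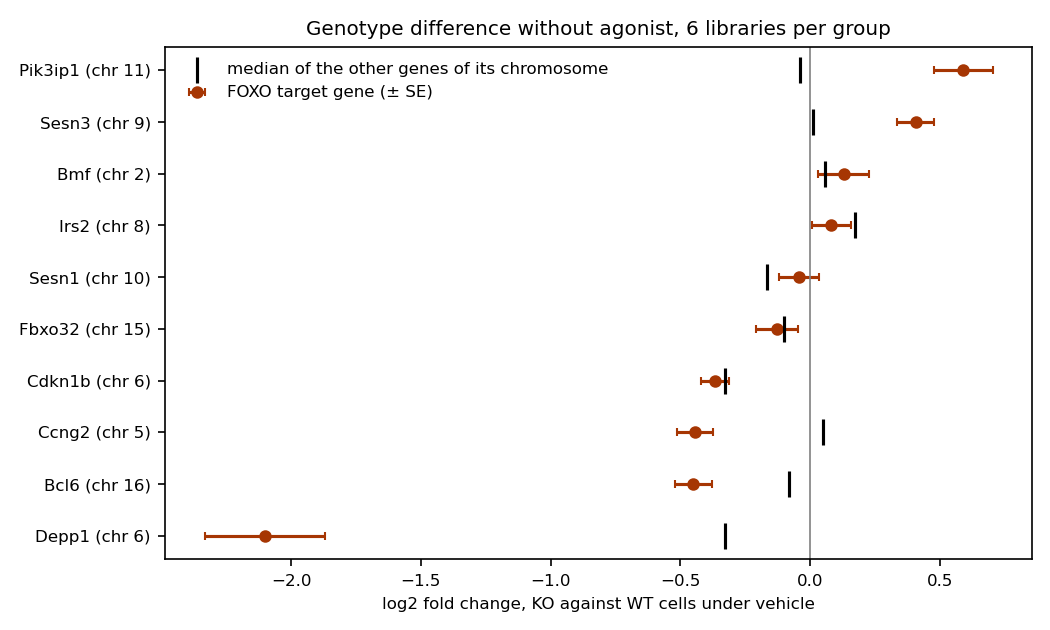
KO against WT difference under vehicle (log2 fold change, horizontal axis; points ± SE, 6 libraries per group) for each gene, with a black bar at the median of the other rows of its chromosome. Depp1 lies at −2.10 with its chromosome at −0.33, and Cdkn1b lies next to its chromosome's bar.

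With the agonist in both genotypes, Bmf, Pik3ip1, Sesn1, Fbxo32, Sesn3 and Cdkn1b were higher in KO than in WT cells and Irs2 and Bcl6 lower. This comparison shares the WT agonist libraries with the contrast taken to have chosen the list. Its values, counts and p-values are therefore a description, and nothing is read from the share called. The difference of Bmf was 1.70 ± 0.10, that of Pik3ip1 1.65 ± 0.11, that of Sesn1 1.13 ± 0.08, that of Fbxo32 0.92 ± 0.08, that of Sesn3 0.90 ± 0.07 and that of Cdkn1b 0.22 ± 0.05. It was −0.39 ± 0.07 for Irs2 and −0.36 ± 0.07 for Bcl6. Depp1 (−0.31 ± 0.23, limma adjusted p = 0.254) and Ccng2 (−0.11 ± 0.07, 0.15) did not pass. In all 8 of 10 were called, against 64.1% of all rows. Scaled to the same total, Irs2 (−0.10, adjusted p = 0.219) and Bcl6 (−0.08, adjusted p = 0.301) no longer passed and Ccng2 was higher in KO cells (0.17, adjusted p = 0.037). Without WT agonist library 3 Depp1 passed (−0.49, adjusted p = 0.046), and without WT agonist library 5 Ccng2 did (−0.17, adjusted p = 0.0186).

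The order of levels among the 10 genes changed with the agonist in both genotypes. In WT cells this restates the contrast taken to have chosen the list. In KO cells Irs2 and Ccng2 exchanged ranks 2 and 3, and Sesn1 and Depp1 ranks 6 and 7, with overlapping libraries each time. In WT vehicle libraries the order by mean was Cdkn1b, Depp1, Ccng2, Irs2, Bcl6, Bmf, Sesn1, Sesn3, Fbxo32 and Pik3ip1. Neighbours whose libraries overlapped were Cdkn1b and Depp1, Depp1 and Ccng2, and Bcl6 and Bmf. In WT agonist libraries the order was Irs2, Ccng2, Cdkn1b, Bcl6, Depp1, Bmf, Sesn3, Sesn1, Fbxo32 and Pik3ip1, so that Depp1 went from rank 2 to rank 5 and Irs2 from rank 4 to rank 1; of these, Irs2 overlapped with Ccng2, Ccng2 with Cdkn1b, Bcl6 with Depp1, Depp1 with Bmf, Bmf with Sesn3 and Sesn3 with Sesn1.

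For each gene the uniquely named gene with the most similar course over the 24 libraries was sought by Pearson r of log2 levels, among all rows past the filter. The points share their libraries and the 4 groups, so each r is a description. Sesn1 was closest to Irf1, an interferon-regulated transcription factor (r = 0.99), and Pik3ip1 to Meak7 (0.99). Bmf was closest to Mlst8, a subunit of the mTOR complexes (0.98), Fbxo32 to Dmrt2 (0.96), Sesn3 to Ankfy1 (0.96) and Bcl6 to Akr1e1 (0.95). Cdkn1b was closest to Casp2, a caspase (0.94), Depp1 to Ctdsp2 (0.94), Irs2 to Pacsin2 (0.92) and Ccng2 to Fzr1, an activator of the anaphase-promoting complex that degrades mitotic cyclins (0.88).

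The regulators of FOXO were examined as a list of 50 genes, of which 42 were in the table and past the filter: the 4 Foxo genes, PI3K, AKT and SGK signalling, 14-3-3 proteins, phosphatases, ubiquitin and acetylation enzymes, and stress kinases. Like the other lists it was written with earlier results known. Calls of these lists in WT cells are therefore a description, carry no p and are not read as a test. Apart from the Foxo genes and the paralogues, the genes named in WT cells were also picked by their adjusted p there. In WT cells 22 were called higher and 8 lower with the agonist (71.4% of the list against 57.2% of all rows). The median of the 42 was 0.14, against −0.01 over all rows. Scaled to the same total per library, the split was 8 higher and 16 lower, against 1433 higher and 6944 lower of all 11557 rows. With quantile scaling it was 17 and 11, against 2694 and 4128 rows. Small differences thus change sign with the scaling.

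Among the 4 Foxo genes, Foxo1 rose in WT cells, and Foxo3, Foxo4 and Foxo6 fell. Foxo1 went from 29.6, 30.5 and 31.8 to 50.3, 53.7 and 63.3 (lowest, median, highest), without overlap, a difference of 0.82 ± 0.06. It stayed at 31.1 to 39.6 and 30.1 to 34.1 in KO vehicle and KO agonist libraries. The difference was −0.23 ± 0.07 for Foxo3, −0.27 ± 0.08 for Foxo4 and −0.55 ± 0.23 for Foxo6, which is near the filter at 3.02 ± 0.661 in WT vehicle libraries. All 4 were called. With quantile scaling Foxo6 did not pass (−0.45), while Foxo1, Foxo3 and Foxo4 kept sign and call under both other scalings.

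Kinase and adaptor genes of the same list differed strongly in size. Sgk1, which encodes a kinase that phosphorylates FOXO, fell in WT cells from 213, 257 and 343 to 88.3, 109 and 134 (−1.26 ± 0.11). It was already low in KO vehicle libraries, at 95.1, 108 and 129.9. Irs1 (−0.71 ± 0.10), the PI3K regulatory subunit gene Pik3r1 (−0.60 ± 0.10) and the catalytic subunit gene Pik3ca (−0.13 ± 0.04) fell too. Trib1, a pseudokinase (1.16 ± 0.09), Mdm2, a ubiquitin ligase (0.73 ± 0.04), the 14-3-3 genes Ywhaz (0.56 ± 0.05) and Ywhag (0.47 ± 0.04) and the stress kinase gene Mapk8 (0.54 ± 0.06) rose. All 6 of the measured 14-3-3 genes were called higher with the deposited scaling, but this did not hold for 3 of them: under both other scalings Ywhab and Ywhaq turned negative and Ywhae did not pass (0.027 after quantile scaling, 0.096 on the same total). Ywhaz was at 0.12 and 0.32 under those scalings and Ywhag at 0.24 and 0.23. In KO cells 3 of the 42 were called, Sgk2 (0.60 ± 0.14) and Phlpp1 (0.18 ± 0.06) higher and Trib1 (−0.28 ± 0.09) lower, 7.14% against 9.3% of all rows. The count was 1 to 8 when single libraries were left out. It was 8 without KO vehicle library 6 and 6 without KO agonist library 2, against 1581 and 1851 of 11557 rows. It was 1 without WT vehicle library 6, WT agonist library 6 or any other KO library, against 284 to 979 rows. Without both KO vehicle library 6 and KO agonist library 2 it was 11, against 2623 rows. Between the genotypes under vehicle 19 of the 42 were called (45.2% against 47.8% of all rows), 9 higher and 10 lower in KO cells; among them Trib3 (0.77 ± 0.11), Phlpp2 (0.53 ± 0.05) and Pik3r3 (0.41 ± 0.05) were higher, and Sgk1 (−1.24 ± 0.11), Foxo4 (−0.45 ± 0.08) and Cdk2 (−0.24 ± 0.05) lower.

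Other genes that textbooks name as FOXO targets did not move as one in WT cells. The list does not part genes that FOXO activates from any that it represses, so the counts below are of plain direction. Of 45 listed 32 were measured, and 13 were called higher and 13 lower (81.3% of the measured genes against 57.2% of all rows). Their median was −0.07, against −0.01 over all rows. With quantile scaling the split was 9 higher and 16 lower, against 2694 and 4128 of all 11557 rows. With the same total it was 8 and 18, against 1433 and 6944 rows. The stress and growth arrest genes Gadd45a (2.00 ± 0.09), Gadd45b (1.83 ± 0.09), Cdkn1a (1.66 ± 0.06), which encodes p21, and Sesn2 (1.22 ± 0.06) rose, as did the Krüppel-like factor genes Klf6 (2.23 ± 0.11) and Klf2 (1.24 ± 0.12). Txnip, which encodes a thioredoxin-binding regulator of glucose uptake, fell from 1195 ± 222 to 159 ± 26.4 (−2.91 ± 0.12). By the smallest adjusted p, the other genes named as lower were Tsc22d3 (−1.10 ± 0.10), which encodes the glucocorticoid-induced leucine zipper protein GILZ, Bcl2l11 (−0.78 ± 0.06), which encodes the BH3-only protein BIM, the autophagy genes Atg14 (−0.61 ± 0.05) and Map1lc3b (−0.38 ± 0.05), and the mitochondrial superoxide dismutase gene Sod2 (−0.32 ± 0.05). In KO cells 4 of the 32 were called (12.5% against 9.3% of all rows): Ccnb1 (0.60 ± 0.14) and Plk1 (0.69 ± 0.18), both mitotic genes, higher, and Sod2 (−0.23 ± 0.05) and Map1lc3b (−0.16 ± 0.05) lower. Without KO vehicle library 6 or KO agonist library 2 the count was 7, against 1581 and 1851 of 11557 rows. Without both it was 10, against 2623 rows, and without KO agonist library 1 it was 2, against 284 rows. Between the genotypes under vehicle 21 were called (65.6% against 47.8% of all rows), 9 higher and 12 lower in KO cells. Sesn2 (0.48 ± 0.06), Prdx3 (0.48 ± 0.06), a mitochondrial peroxiredoxin gene, and Cat (0.29 ± 0.05), which encodes catalase, were among the higher, and Klf2 (−0.87 ± 0.12), Gabarapl1 (−0.80 ± 0.09) and Gadd45b (−0.76 ± 0.09) among the lower.

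Genes related to the 10 by sequence, by a shared motif or by function were listed separately, 15 in all and 11 measured. They are named paralogues for short, though not all are paralogues in the strict sense (Pik3r1, for example). Several of them are also on the other lists. In WT cells 3 were called higher (Pmaip1, Cdkn1a and Sesn2) and 4 lower (Bcl2l11, Irs1, Pik3r1 and Fbxo25), 63.6% of the 11 against 57.2% of all rows. Among the BH3-only genes, Bcl2l11 fell with the agonist and Pmaip1, which encodes NOXA, rose by 3.29 ± 0.12, while Bbc3 (0.059 ± 0.08) and Bad (−0.21 ± 0.09) did not pass. Among the relatives of Cdkn1b and Ccng2, Cdkn1a rose and Ccng1 (0.11 ± 0.07) and Ccni (0.027 ± 0.04) did not pass. Fbxo25, a relative of Fbxo32, fell (−0.39 ± 0.05). In KO cells 0 of the 11 were called by limma, against 9.3% of all rows. The smallest adjusted p among them was that of Sesn2 (log2 difference −0.16 ± 0.06, limma adjusted p = 0.0877). Without KO vehicle library 6, 2 were called, against 1581 of 11557 rows, and without WT agonist library 5, 1 was called, against 1211. Between the genotypes under vehicle 3 were higher and 3 lower in KO cells, 54.5% against 47.8% of all rows.

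**Figure D4:**
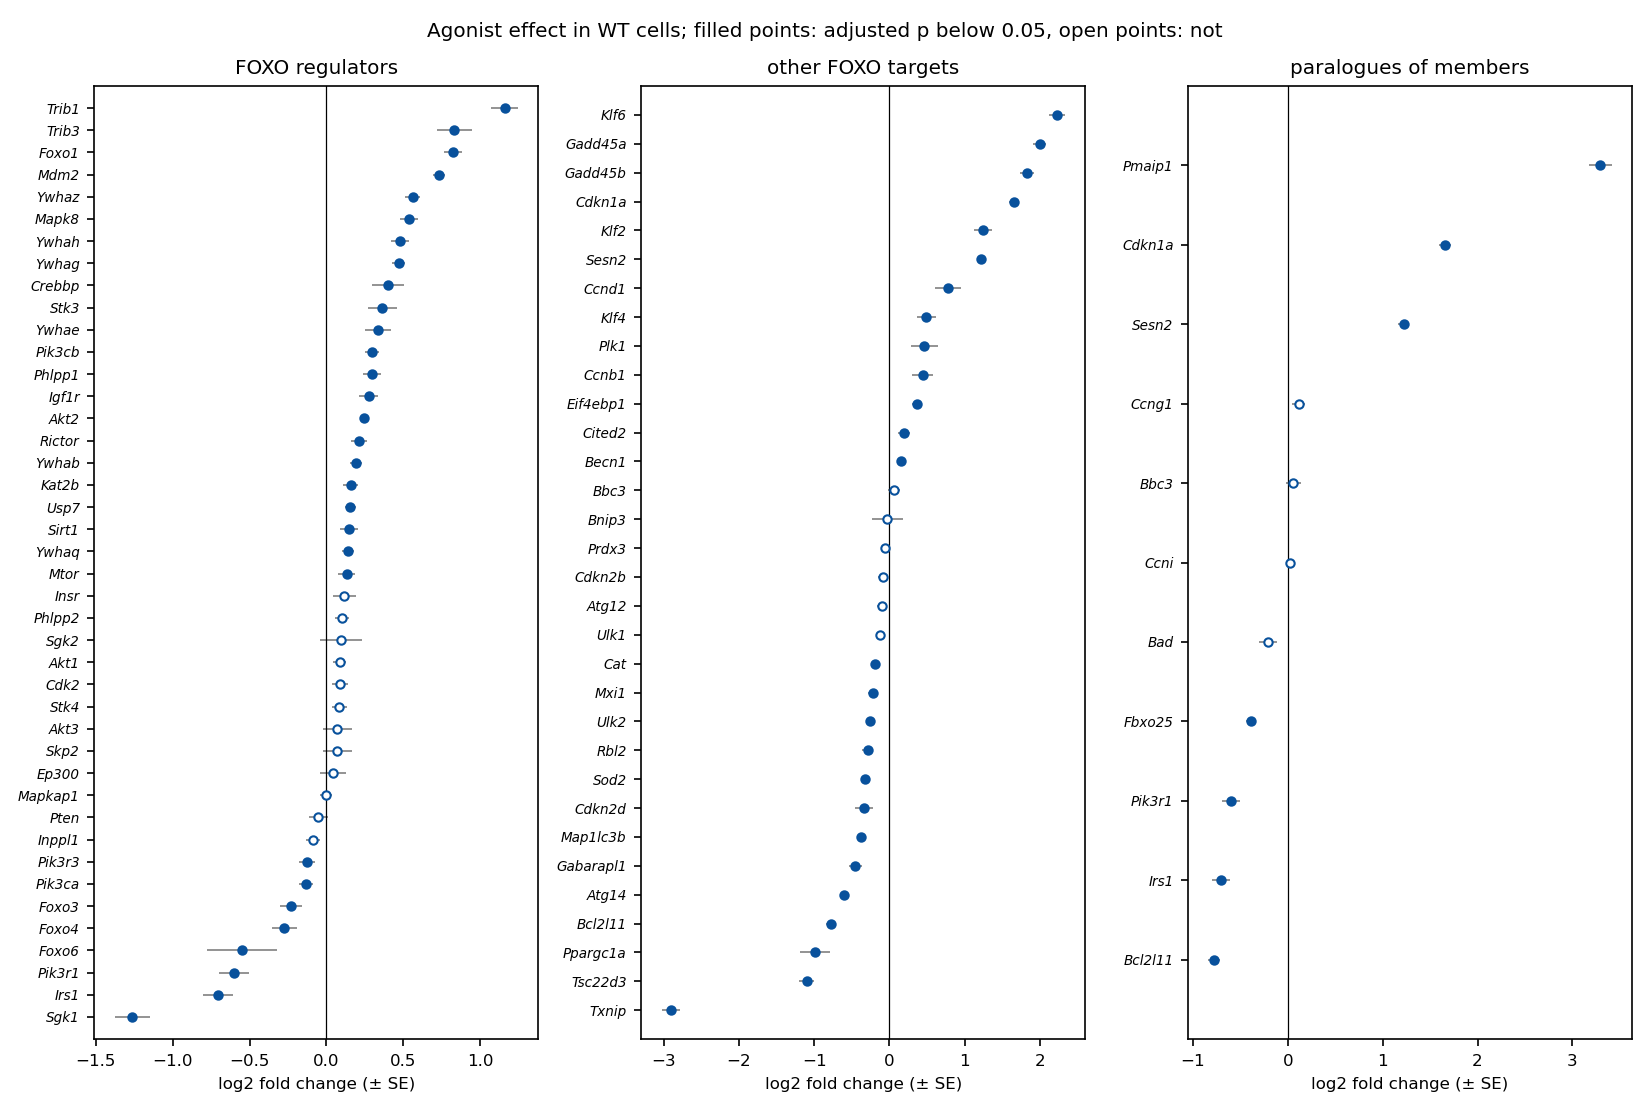
Agonist difference in WT cells (log2 fold change on the horizontal axes, ± SE, 6 libraries per group) of every measured gene of the 3 lists: 42 FOXO regulators, 32 other FOXO targets and 11 paralogues. Filled points passed at an adjusted p below 0.05; values run both ways in each list, from Sgk1 (−1.26) to Trib1 (1.16) among the regulators and from Txnip (−2.91) to Klf6 (2.23) among the other targets.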

How the data were processed

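Poly(A)-selected RNA of 24 mpkCCD libraries was measured. The authors deposited 1 table of 12224 rows whose unit is a signal, read counts divided by a library factor and by the deposited gene length; the submitters' processing notes name STAR 2.7.8a, DESeq2, DESeq and GRCm39 without roles, and the counter and strand setting are not given in the sources used here. Multiplied by gene length, values under 2000 became whole reads within 0.1 after a factor per library (0.754 to 1.46) for 100% of values, which gave 29.8 to 51.9 M reads (M, 1000000) per library; these counts served voom only.

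Values were multiplied by 92.1. The 11557 rows whose mean reached 1 scaled unit were fitted as log2(value + 0.5) with limma 3.58.1 in R 4.3.3, all 4 groups of 6 together, with trend and robust variance, 20 residual degrees of freedom, 5 two-sided contrasts and Benjamini-Hochberg adjustment over all rows; calls required an adjusted p below 0.05. The fit was tested on simulated data.

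The 10 genes and all lists were chosen with earlier results of these data known. Named were the 10 genes, the 4 Foxo genes, all measured paralogues, the most alike gene of each, and in each other list at most 6 called genes per direction with the smallest adjusted p in WT cells (3 in other contrasts). Promoter windows are from RefSeq (GRCm38.p6); chromosomes are as in the deposited table. Alternatives covered the pseudocount (0.1, 2), the filter (none, 5), scaling, voom, the groups fitted, a replicate block, a 1.5-fold minimum and left-out libraries.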

Additional observations from a re-analysis of the deposited data

Results flagged for a closer look

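Cdkn1b stood at 91.9 scaled units in KO agonist library 6, while the other 5 libraries of that group were between 79.9 and 83.8. Its gap to the next library was 0.674 of the group's range, above the critical value of Dixon's test. It was the 1 such case in 40 sets of 6 libraries (10 genes in 4 groups), and chance alone gives about 1 in 20.

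The agonist difference was called different between the genotypes for 9 genes, by the interaction term over all rows. As WT minus KO on the log2 scale it was −1.80 for Depp1, −1.57 for Bmf, −1.18 for Sesn1, −1.06 for Pik3ip1, −1.05 for Fbxo32, −0.59 for Cdkn1b, −0.49 for Sesn3, −0.33 for Ccng2 and 0.47 for Irs2. The list was chosen with the WT response known, so these values describe it. Scaled to the same total, the value of Irs2 was 0.20 and was no longer called, while Bcl6, at −0.36, was.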

How the results depend on the processing

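Of 827 values under alternatives that kept every library or left out 2 together, 779 kept their direction and their side of the threshold (for counts, stayed within 1.5 times), as did 1497 of 1536 values with 1 library left out. With a minimum fold of 1.5, 81 of all 11557 rows were called in KO cells. Among them were 0 of the 10 genes, 1 of 42 regulators and 2 of 32 other targets. In WT cells 7 of 42 regulators and 12 of 32 other targets were called, against 1498 of 11557 rows. Between genotypes under vehicle 2 of the 10 genes, 2 regulators, 4 other targets and 0 paralogues were called, against 913 rows. Under agonist 5 of the 10 genes were called, against 2093 rows, a description since the WT agonist libraries are shared. The fold minimum by construction lowers counts. In KO cells, the same total or voom on recovered reads gave 2 of the 10 genes, adding Sesn3 (limma, adjusted p = 0.0481 and 0.0418). Over all rows the same total called 961 in KO cells, and voom called 6574 in WT and 1126 in KO cells. A fit without trend or robust variance gave 1 regulator in KO cells, against 979 rows. Without KO vehicle library 6 and KO agonist library 2 together, 3 of the 10 genes, 11 regulators, 10 other targets and 2 paralogues were called in KO cells; over all rows the count went from 1075 to 2623. With single libraries left out, the same 4 counts ranged from 0 to 3, 1 to 8, 2 to 7 and 0 to 2. The count over all rows then ranged from 284 to 1851. The KO agonist difference of Cdkn1b turned to 0.0039 with the same total and 0.016 without the 2 libraries (−0.059 to 0.013 with 1 left out), that of Pik3ip1 to 0.0014 with the same total (−0.11 to 0.018) and that of Irs2 to −0.029 without the 2 libraries (−0.028 to 0.069). The genotype difference of Sesn1 under vehicle turned to 0.016 without them (−0.087 to 0.016), and that of Ccng2 under agonist to 0.037 after quantile scaling and to 0.17 on the same total. None of these was called in the reported fit, and the cause was not tested. The stricter filter of 5 removed Pik3ip1, which then has no value. Labels number the libraries 1 to 6 in each group: deviations of same-numbered libraries correlated at a median of 0.017 over 36 pairs (−0.315 to 0.488), those of other numbers at 0.004, and 5 of 24 libraries correlated best with their own number. The numbers were therefore not taken as pairing. With a replicate block, 9 of the 10 genes were called in WT and 1 in KO cells, as without it, and 1122 rows in all were called in KO cells. Depth limits Pik3ip1 most, at 56 to 82 reads per WT agonist library.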
